A study of Homo sapiens with 11 samples.

Results

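Messenger RNA was compared between Reh cells transfected with a miR-99a oligo and Reh cells transfected with a scrambled oligo. The arrays were chosen by their titles, not by any measured value: 3 of miR-99a and 2 of the scrambled control, 5 of the 11 arrays in the series. Reh is an established human B-cell precursor leukaemia line carrying the ETV6-RUNX1 fusion. In every group, the control included, the cells had been infected with virus and stably expressed miR-125b, so the comparison shows miR-99a only on top of miR-125b. The miR-99a group received the miR-99a precursor oligo at 66 µM with a lipid reagent, a second dose after 72 h, and was harvested 48 h after that. The scrambled control received the scrambled precursor on the same schedule and at the same 66 µM. The remaining arrays were of miR-100 at 66 µM and of both oligos at 33 µM each, with 3 arrays per group, and they served to estimate the spread between arrays. The labels speak of incubation in triplicate but do not say which arrays come from separate cultures, so p-values may measure technical spread only, and they do not say whether the miR-125b line was 1 clone or a mixed culture.

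MicroRNAs guide Argonaute proteins to messenger RNAs that pair with the seed, bases 2 to 8 of the microRNA, and the bound message is translated less and often degraded. The miR-99/100 family is known for repressing the growth kinase mTOR, the insulin-like growth factor receptor and chromatin remodellers of the SWI/SNF and ISWI classes. Such effects on a message are usually small, so a modest shift of many genes is the form in which they are looked for. The mature sequences from RefSeq (GRCh38.p14) are shown 5′ to 3′ with the seed in capitals, since the oligo tested differs little from its relative and not at all in the seed.
miR-99a-5p: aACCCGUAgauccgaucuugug
miR-100-5p: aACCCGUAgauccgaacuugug
miR-99b-5p: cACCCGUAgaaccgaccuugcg
miR-125b-5p: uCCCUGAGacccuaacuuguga
The first lies at chr21:16539101-16539122 on the plus strand, within the miR-99a gene, and the second at chr11:122152275-122152296 on the minus strand. Counted from the 5′ end of miR-99a, miR-100 differs by 1 base, U16A, and miR-99b by 4 (A1C, U11A, U16C and U21C). The seed of miR-125b, which all the cells carried in excess, is another one. The labels give neither the chemical form of the precursors nor which strand was active, and the arrays do not measure mature microRNAs, so uptake of the oligo could not be checked here.

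The values are log2 expression of 19775 genes, and the array medians lay between 5.95 and 5.984. Markers matched the label of the cells, with 18 of 24 B-precursor markers above a mean of 8 and the DNA polymerase of immature lymphocytes, DNTT, the brightest at 13.09. By contrast 0 of 18 T and NK markers and 0 of 10 erythroid and platelet markers passed 8. AIF1 (10.67) was the 1 myeloid marker of 14 to do so, and the intermediate filament gene VIM (12.92) the 1 of 15 stromal ones. The summed T and NK marker level was 10.07 to 10.11 (log2) in miR-99a arrays, against 10.08 to 10.12 in control arrays, and the B-precursor sum was 15.5 to 15.59 against 15.47 to 15.63. Replicate 3 of miR-99a stood apart. It correlated across genes at 0.9907 and 0.9914 with miR-99a replicates 1 and 2, which correlated at 0.998 with each other, and at 0.998 and 0.9979 with replicate 3 of miR-100 and of the combination. With the control arrays replicate 3 correlated at 0.9941 to 0.9957, more closely than with its own group. For miR-99a replicates 1 and 2 the correlation with control arrays was 0.9965 to 0.998. There is no control array numbered 3, so the values of replicates 1 and 2 and of replicate 3 are also given apart. What set replicate 3 apart was not tested.

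No gene passed the test of miR-99a against control. Limma, fitted over all 11 arrays with Benjamini-Hochberg adjustment, called 0 of 19775 genes at an adjusted p under 0.05 (0%), and 198 genes (1%) had an unadjusted p under 0.05, of which 100 were higher (0.506%) and 98 lower (0.496%). That fit holds no term for the replicate number, while same-numbered arrays of the oligo groups deviated together. Its p-values may therefore be too large. Blocking on that number gave 1981 genes at an unadjusted p under 0.05, and a term for replicate 3 gave 1734. After adjustment 5 and 0 genes passed in these fits, and the labels give no pairing with control. In the main fit the differences were small, and none exceeded 0.5 on the log2 scale. The largest higher value was 0.46 and the largest lower value -0.46. All 3 miR-99a arrays lay above both control arrays in 1493 genes (7.55%) and below both in 1558 genes (7.88%). Replicates 1 and 2 averaged on one side of the control mean and replicate 3 on the other in 10252 genes, 51.8% of all. In bulk RNA of this kind, fewer cells with a message and less message per cell cannot be told apart.

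The reported targets of the family did not shift as a set. Of 27 listed, 26 were measured, 13 of them higher and 13 lower with miR-99a, with a median log2 difference of 0.001 beside -0.006 over all genes. The median was 0.01 in replicates 1 and 2 and 0.02 in replicate 3. None passed at an adjusted p under 0.05, and 1, BAZ2A, had an unadjusted p under 0.05. In 4 of the 26 (15.4%) the arrays lay wholly below control, beside 7.88% of all genes. All 4 had a mean above 8, so among the 13 targets above 8 the share was 30.8%, beside 11.4% of the 5553 genes in that range. After quantile normalization 2 of these 13 lay wholly below control, beside 5.29% of genes above 8. In 2 of the 26 (7.69%) they lay wholly above, beside 7.55% of all genes. Replicates 1 and 2 opposed replicate 3 in 13 targets (50%), close to the share of all genes.

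**Figure D1:**
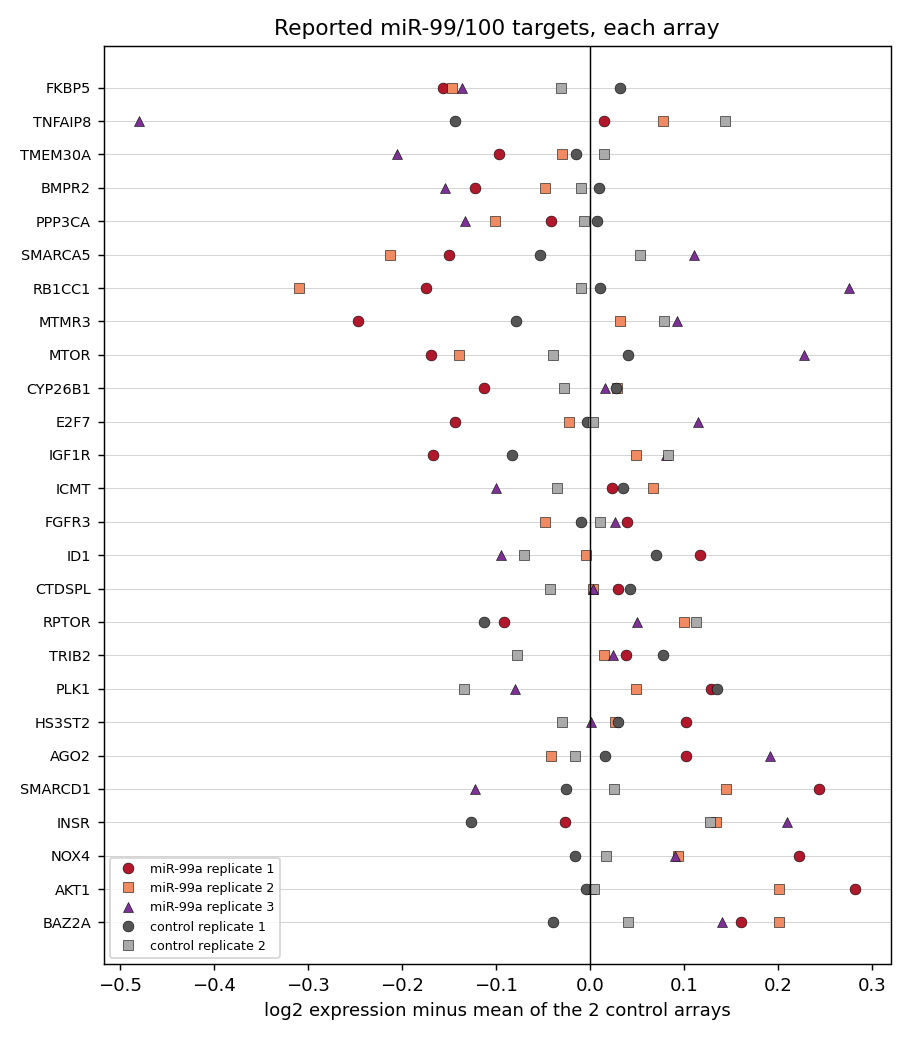
Each row is a reported miR-99/100 target and each point 1 array, as log2 expression minus the mean of the 2 control arrays; red circles, orange squares and purple triangles are miR-99a replicates 1, 2 and 3, and grey points are control replicates 1 and 2. FKBP5 shows 3 miR-99a points below both controls and BAZ2A 3 above, while MTOR, SMARCA5 and RB1CC1 have replicate 3 on the opposite side from replicates 1 and 2.

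Among targets of the growth axis, the kinase gene MTOR had 6.86, 6.89 and 7.25 in the miR-99a arrays, against 7.07 and 6.99 in the control arrays. Replicates 1 and 2 were below both controls and replicate 3 above both, so the log2 difference was -0.03 ± 0.16 (SE, n = 3 against 2), made up of -0.15 in replicates 1 and 2 and 0.23 in replicate 3. A second, dimmer MTOR probe set went the other way, at 6.11, 6.16 and 6.01 with miR-99a, against 5.92 and 5.98 in control. RPTOR, which encodes the scaffold of mTOR complex 1, had 6.83, 7.02 and 6.97 with miR-99a, against 6.81 and 7.04 in control, and the groups overlapped. The receptor gene IGF1R had 7.92, 8.14 and 8.17, against 8.01 and 8.18 in control (difference -0.01 ± 0.15). For the insulin receptor gene INSR the difference was 0.1 ± 0.13 and for the kinase gene AKT1 0.16 ± 0.1, where replicates 1 and 2 (7.78 and 7.7) were above both controls (7.49 and 7.5) and replicate 3 (7.5) level with them.

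The wider mTOR pathway gave no common direction: 22 of 42 measured genes were higher and 20 lower (median 0.001, with 0.007 in replicates 1 and 2 and -0.033 in replicate 3, which quantile normalization turned to 0.046), and 0 passed the adjusted test. AKT1S1, whose product PRAS40 restrains mTOR complex 1, had 6.27, 6.29 and 6.15 with miR-99a, against 5.98 and 6.04 in control. Its arrays did not overlap (0.23 ± 0.09), while a second, dimmer AKT1S1 probe set had 0.06 with overlap and -0.05 in replicate 3. MLST8, a subunit of both mTOR complexes, had 0.16 ± 0.08. Of 23 genes of the insulin-like growth factor and PI3K axis, 12 were higher and 11 lower (median 0.005, with 0.031 in replicates 1 and 2 and 0 in replicate 3), with the adaptor gene IRS1 at -0.12 ± 0.08.

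Among targets that act on chromatin, BAZ2A, a subunit of the nucleolar remodelling complex that silences ribosomal DNA, was higher rather than lower. It had 7.62, 7.66 and 7.6 with miR-99a, against 7.42 and 7.5 in control, a difference of 0.17 ± 0.07 (limma, adjusted p = 1). All 4 BAZ2A probe sets were higher (0.08 to 0.17), each with every miR-99a array above both controls. Probe sets of a gene share the RNA of each array and are not replicates. The ISWI ATPase gene SMARCA5 had 10.21, 10.15 and 10.47 with miR-99a, against 10.31 and 10.42 in control, and was below control in replicates 1 and 2 (-0.18) and above in replicate 3 (0.11). Its 3 probe sets were all lower on average (-0.09 to -0.04). SMARCD1, a SWI/SNF subunit, took the reverse course, with 0.19 in replicates 1 and 2 and -0.12 in replicate 3. RB1CC1, which encodes an autophagy scaffold, was -0.24 and 0.27. Over 33 SWI/SNF, ISWI and related remodellers 18 were higher and 15 lower (median 0.002, with -0.012 in replicates 1 and 2 and 0.055 in replicate 3). ACTL6A, an actin-related SWI/SNF subunit, had the smallest p among them, at 9.89, 9.87 and 9.83 with miR-99a, against 10.01 and 10.08 in control (-0.18 ± 0.07).

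FKBP5 encodes the co-chaperone that holds the glucocorticoid receptor in a state of low affinity. With each gene's brightest probe set, FKBP5 had the lowest log2 difference among the reported targets. Its brightest probe set had 10.9, 10.91 and 10.93 with miR-99a, against 11.09 and 11.03 in control. All 3 arrays were lower by a similar amount, -0.15 in replicates 1 and 2 and -0.14 in replicate 3 (difference -0.15 ± 0.09, limma, adjusted p = 1). The second probe set had 8.77, 8.69 and 8.57, against 8.89 and 8.57 in control, and overlapped. Another was higher on average (0.08). Over the mean of a gene's probe sets FKBP5 had -0.041. By that rule PPP3CA (-0.091), TMEM30A (-0.09), TNFAIP8 (-0.089), BMPR2 (-0.074) and SMARCA5 (-0.073) had lower differences than FKBP5. At levels between 10 and 12 the median of all genes was -0.068, with 1104 of 1288 lower, and FKBP5 ranked at 430 by p among genes with lower values. In the list of 25 glucocorticoid response genes 12 were higher and 13 lower (median -0.024, turned to 0.017 by quantile normalization). CXCR4, a chemokine receptor gene, had 11.73, 11.73 and 11.64 with miR-99a, against 11.83 and 11.97 in control (-0.2 ± 0.09). The Argonaute gene AGO2 (0.08 ± 0.13), the pseudokinase gene TRIB2 (0.03 ± 0.09) and the phosphatase gene CTDSPL (0.01 ± 0.07) had overlapping groups.

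Of the 13 measured targets in signalling and other roles, 8 were lower and 5 higher. The receptor gene BMPR2, which binds bone morphogenetic proteins, had 8.22, 8.29 and 8.19 with miR-99a, against 8.35 and 8.33 in control (-0.11 ± 0.09). Of its 6 probe sets 5 were lower, 2 of them without overlap. PPP3CA, the catalytic subunit gene of calcineurin, had 9.17, 9.11 and 9.08, against 9.22 and 9.21 in control (-0.09 ± 0.07), and all 3 of its probe sets were lower. TMEM30A, which encodes a partner of phospholipid flippases, had 10.37, 10.44 and 10.26, against 10.45 and 10.48 in control (-0.11 ± 0.11). These 3 genes, with FKBP5, are the targets whose arrays lay wholly below control. TNFAIP8, an apoptosis regulator gene, owed its -0.13 ± 0.2 to replicate 3 alone, with 8.54, 8.61 and 8.05 in the miR-99a arrays, against 8.38 and 8.67 in control. The oxidase gene NOX4 was dim and higher (0.14 ± 0.08), while a second NOX4 probe set was lower (-0.07). FGFR3, PLK1, ID1, E2F7, MTMR3, CYP26B1, ICMT and HS3ST2 lay between -0.04 and 0.04.

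The precision sets what could have been seen. The 95% intervals of the 26 targets ran from -0.57 at the lowest bound to 0.4 at the highest, and 25 included 0, in the fit that leaves out the replicate number. A log2 difference of -0.57 is a level of 0.673 of control, so a level under that lay outside all 26 intervals, and smaller falls could not be told from no change for most of these genes. The 2 targets with a bound under -0.5 were TNFAIP8 and RB1CC1, whose replicate 3 differed from replicates 1 and 2. Over all 69 probe sets of these genes 34 (49.3%) were lower with miR-99a, beside 51% of the 41091 tested. Arrays lay wholly below control in 7 (10.1%, beside 7.61%) and wholly above in 10 (14.5%, beside 8.14%).

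**Figure D2:**
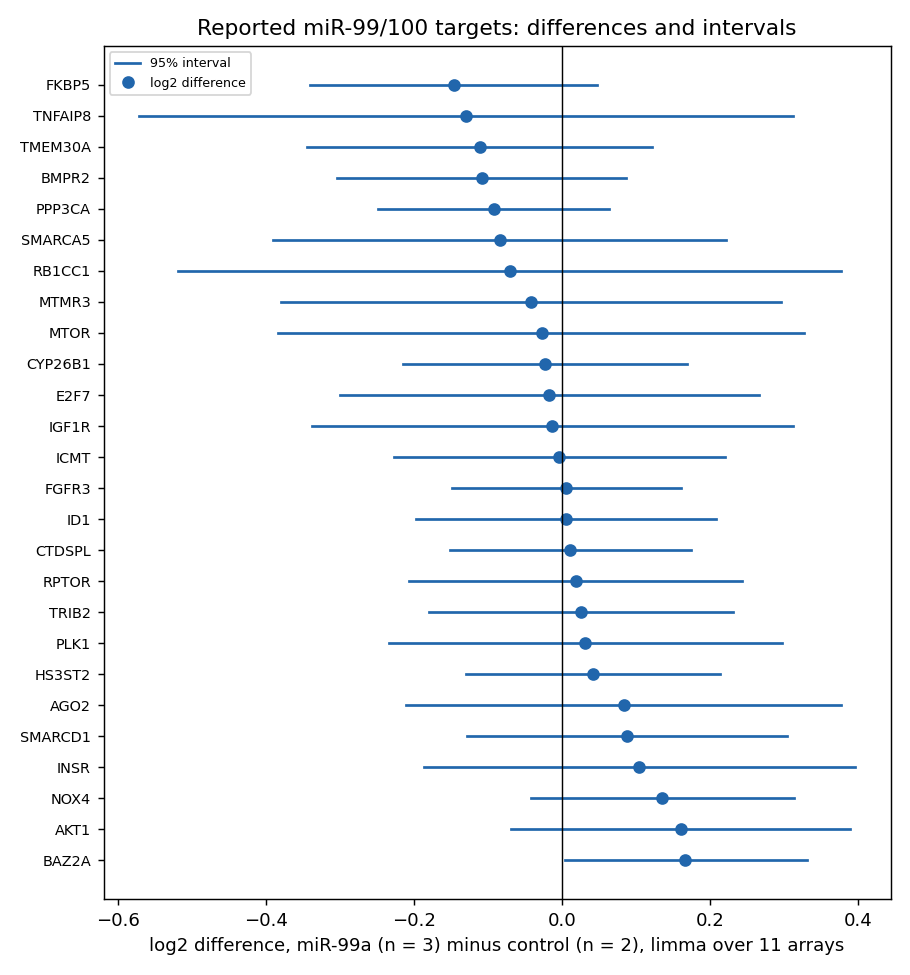
Points are log2 differences of miR-99a (n = 3) minus control (n = 2) for the 26 measured reported targets and lines are limma's 95% intervals from the fit over 11 arrays. Every interval but that of BAZ2A crosses 0, and the lowest bound is -0.57.

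The 30 measured predicted targets, written from general knowledge and not tested for sites, leaned lower: 19 were lower and 11 higher, with a median of -0.042. Of the 30, 15 (50%) were lower in replicates 1 and 2 and also in replicate 3, beside 23.7% of all genes and 1007 of 4015 genes with a mean of 8 to 10. With quantile normalization 17 were lower and the median was -0.03. In 5 (16.7%) the arrays lay wholly below control, beside 7.88% of all genes and 440 of 4015 genes at levels of 8 to 10. PPM1D, a phosphatase that switches off p53, had 9.08, 9.21 and 9.1 with miR-99a, against 9.26 and 9.32 in control (-0.16 ± 0.09). THAP2, a zinc finger gene, had 6.9, 6.8 and 6.75, against 6.95 and 6.96 in control (-0.14 ± 0.07). Neither passed (limma, adjusted p = 1 for both). The median level of the list was 7.99, and all genes had a median difference of 0.007 at levels of 6 to 8 and of -0.041 at 8 to 10.

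Outside the target lists, 12 genes in each direction were taken by the smallest unadjusted p among genes without overlap. Their values are therefore a description, and their sizes lay between 0.22 and 0.46. Among the higher ones, PTK2B, a tyrosine kinase of focal adhesion signalling, had 7.5, 7.47 and 7.5 with miR-99a, against 7.16 and 7.26 in control (0.28 ± 0.06). The splicing factor gene PRPF6 had 8.77, 8.85 and 8.81, against 8.41 and 8.29 in control (0.46 ± 0.13), the largest in the set. APPL2, an endosomal adaptor gene, had 6.55, 6.56 and 6.68, against 6.33 and 6.15 in control (0.35 ± 0.11). LDB1, which encodes a bridge between LIM-domain factors and GATA complexes, had 7.7, 7.88 and 7.64, against 7.51 and 7.4 in control (0.29 ± 0.09). The difference was alike in replicates 1 and 2 and in replicate 3 for PTK2B (0.27 and 0.29) and PRPF6 (0.46 in both), and less so for APPL2 (0.31 and 0.44) and LDB1 (0.34 and 0.18). The phospholipid transporter gene ABCB4 (0.25 ± 0.07), the antisense transcript HSPA2-AS1 (0.23), the calcium-binding protein gene CABP1 (0.21), the enamel gene ENAM (0.22), MUCL3 (0.23), the lipid antigen gene CD1E (0.23), SMAD3-DT and LOC100996756 (0.28 each) had control levels below 6.

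Among the lower ones, CARNMT1, a methyltransferase gene of carnosine metabolism, had 8.11, 8.06 and 8 with miR-99a, against 8.31 and 8.46 in control (-0.33 ± 0.08). FBXO5, whose product EMI1 inhibits the anaphase-promoting complex, had 10.03, 10.07 and 9.9, against 10.2 and 10.28 in control (-0.24 ± 0.07). LATS1, a kinase of the Hippo pathway, had 9.22, 9.19 and 9.15, against 9.4 and 9.53 in control (-0.28 ± 0.09). In all 3 genes every miR-99a array was below both controls, and replicate 3 was the lowest. GAS5, a noncoding host of small nucleolar RNAs, had 6.57, 6.59 and 6.62, against 6.79 and 6.87 in control (-0.23 ± 0.06), and the mitochondrial carrier gene SLC25A43 had 6.57, 6.65 and 6.62, against 6.86 and 6.84 (-0.24 ± 0.07). LINC00314, TDRP, FAM124B, the somatostatin receptor gene SSTR1, GIMAP7, LINC01988 and the leptin gene LEP, all with means below the gene median of 6.4, lay between -0.29 and -0.22. In all 24 genes replicates 1 and 2 and replicate 3 were on the same side of control, which the way they were chosen requires.

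**Figure D3:**
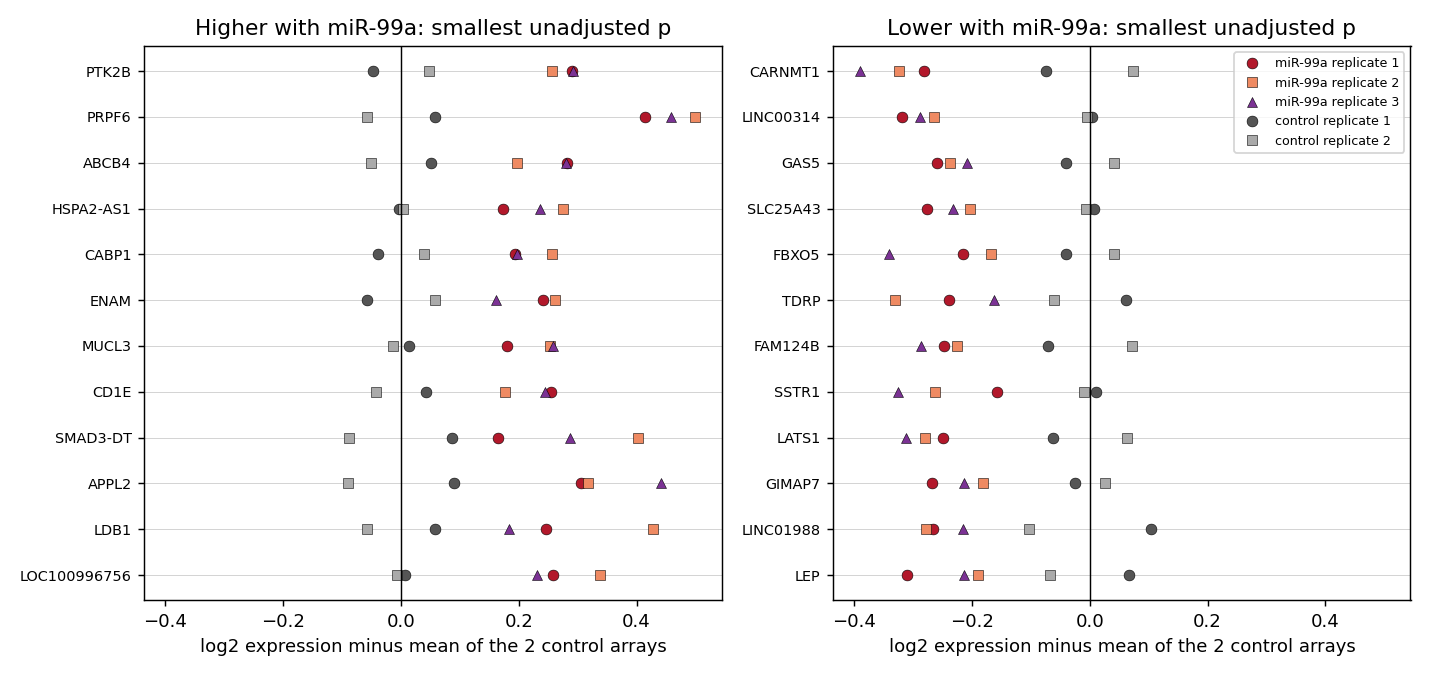
Points are single arrays as log2 expression minus the mean of the 2 control arrays, for the 12 higher (left) and 12 lower (right) genes with the smallest unadjusted p; coloured points are miR-99a replicates and grey points control replicates. The genes were chosen for this separation, and PRPF6, at 0.46 on average, is the farthest from control.

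The other probe sets of these genes were not used in choosing them. Among the 24 genes 13 had further probe sets, 17 in all, of which 7 pointed the same way and 3 did so without overlap. Probe sets of SSTR1 (0.15), ENAM (-0.08) and LATS1 (0.07) lay without overlap on the opposite side. Over all probe sets 51% were lower, 7.61% lay wholly below control and 8.14% wholly above. PRPF6 is the clearest case, since its second probe set is as bright: it had 8.42, 8.51 and 8.53 with miR-99a, against 8.36 and 8.63 in control, a difference of -0.01. That of FBXO5 had 9.69, 9.58 and 9.49, against 9.61 and 9.45 in control (0.06). For PTK2B the second probe set was higher by 0.17 with overlap, and for LDB1 by 0.13 without overlap (7.41, 7.49 and 7.34, against 7.28 and 7.28 in control). The second CARNMT1 probe set was dim and lower (-0.1) without overlap. The 3 further LATS1 probe sets were near 5 and between 0.01 and 0.07. Most other probe sets were dim, and probe sets of a gene can read different transcripts, which was not tested.

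Among genes with a mean above 8, the largest higher values without overlap after PRPF6 were MINK1 (0.22), a kinase gene, the amino acid transporter gene SLC3A2 (0.21), the antiviral gene OAS3 (0.2) and LGALS3BP (0.2), a secreted galectin ligand. The lower ones were led by ZNF91, a zinc finger repressor of retroelements, at 9.11, 8.51 and 8.96 with miR-99a, against 9.53 and 9.12 in control. Its arrays were widely spread (-0.46 ± 0.2), and its next brightest probe set had a difference of 0, with 7.7, 7.38 and 8.14, against 7.86 and 7.62 in control. Cross-reading among related zinc finger genes could not be assessed. After CARNMT1 and LATS1 came C21orf91 (-0.27) and STXBP3 (-0.26), a regulator gene of vesicle fusion. As a class the 425 ZNF genes had 243 lower and 182 higher (median -0.011), with ZNF155 (0.25) and ZNF483 (0.19) smallest by p.

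Bright genes were on average lower with miR-99a, which touches every list of abundant genes. Of 5553 genes with a mean above 8, the arrays lay wholly above control in 70 (1.26%) and wholly below in 631 (11.4%). Quantile normalization changed this split to 193 and 294. The medians were -0.041 at 8 to 10, -0.068 at 10 to 12 and -0.057 at 12 or more, against 0.007 at 6 to 8. At 10 to 12 replicate 3 contributed -0.218 and replicates 1 and 2 -0.019, and quantile normalization brought these to -0.06 and -0.024.

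**Figure D4:**
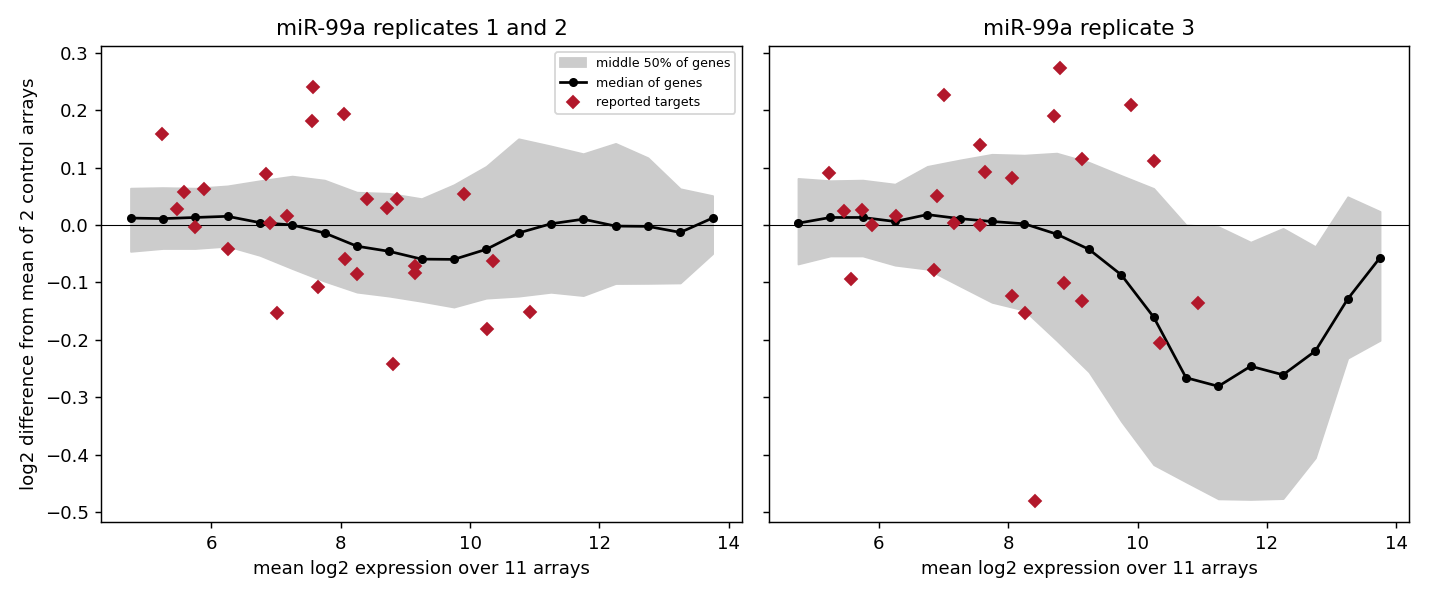
The black line is the median log2 difference from the mean of the 2 control arrays over genes in bins 0.5 wide of mean log2 expression and the grey band holds the middle 50% of the genes, for miR-99a replicates 1 and 2 (left) and replicate 3 (right); red diamonds are reported targets. Replicate 3 falls away from 0 among bright genes, with a median of -0.218 at levels of 10 to 12, while replicates 1 and 2 stay at -0.019 there.

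Several gene lists had opposite medians in the separate replicates, so that the mean of 3 arrays described neither. Nuclear-encoded subunits of oxidative phosphorylation were lower in 60 of 68 cases on average (median -0.069), beside 53% of all genes. The list had a median level of 11.54, and 85.7% of all genes with a mean of 10 to 12 were lower (median -0.068). The median of the subunit genes was 0.139 in replicates 1 and 2 and -0.489 in replicate 3. Taken by number, replicate 1 of miR-99a was 0.211 above control replicate 1 and replicate 2 was 0.062 above control replicate 2. Only 9 of the 68 were lower in both subsets of replicates, beside 23.7% of all genes. NDUFA9, a complex I gene, was among them, at 9.91, 10.03 and 9.99 with miR-99a, against 10.23 and 10.17 in control (-0.22 ± 0.12). The ATP synthase subunit gene ATP5MF had 0.14 ± 0.09 with overlap, on a dim probe set with a mean of 5.839. Mitochondrial ribosomal protein genes had 66 of 75 lower (median -0.083), beside 69.7% of genes with a mean of 8 to 10 (median -0.041). Their median level was 9.51. The median difference was 0.01 in replicates 1 and 2 and -0.258 in replicate 3. MRPL3 at -0.21 ± 0.1 and MRPL48 at -0.19 ± 0.1 had the smallest p. Cytoplasmic ribosomal protein genes had 48 of 56 lower (median -0.035), beside 85.6% of genes with a mean of 12 or more (median -0.057). Their median was -0.12 in replicate 3 and 0.003 in replicates 1 and 2, which quantile normalization turned to -0.004. RPL27A (-0.35 ± 0.12) and RPLP2 (-0.21 ± 0.08) led them by p, on probe sets with means of 7.02 and 5.836. None of these genes passed the adjusted test. Quantile normalization kept each of the 3 medians over all arrays below 0, while the replicate number, fitted as a block or as a term for replicate 3, turned that of oxidative phosphorylation to 0.105 and that of the cytoplasmic ribosome to 0.064.

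Mitotic genes showed the reverse split. On average 44 of 58 were lower (median -0.054), beside 69.7% of genes with a mean of 8 to 10. Yet the mitotic median was -0.154 in replicates 1 and 2 and 0.144 in replicate 3. Of the 58, 1 gene, CCNA2, was lower in both. The cyclin gene CCNA2 had 10.64, 10.6 and 10.66 with miR-99a, against 10.81 and 10.71 in control, and the kinetochore gene NUF2 had -0.25 and 0.01 in the 2 subsets. By number the medians of replicates 1 and 2 were -0.158 and -0.117. DNA replication genes had 36 of 45 lower, beside the same 69.7%, with medians of -0.111 and 0.082 in the 2 subsets. Here 11 were lower in both subsets of replicates, including the clamp loader gene RFC3, at 9.2, 9.14 and 9.2 with miR-99a, against 9.34 and 9.39 in control (-0.18 ± 0.07), and the primase gene PRIM2, at 7.02, 6.95 and 6.98, against 7.15 and 7.27 (-0.23 ± 0.1). Heat shock and CCT chaperone genes had -0.183 and 0.1, with CHORDC1 at -0.23 ± 0.12, and the microRNA machinery -0.08 and 0.036. In that machinery the Argonaute gene AGO1 had 7.92, 7.35 and 7.33, against 8 and 7.84 in control (-0.39 ± 0.18), so that replicate 1 lay between the controls and replicates 2 and 3 well below. Its next probe set, at 7.47, 7.6 and 7.6 against 7.68 and 7.68 in control, was lower by 0.12. A further AGO1 probe set had -0.02 with overlap, and the dimmest was higher by 0.11 without overlap. The nuclear transport GTPase gene RAN had -0.16 ± 0.08.

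For the proteasome, which breaks down ubiquitin-tagged proteins, both subsets of replicates were lower. The medians were -0.124 in replicates 1 and 2 and -0.151 in replicate 3. On average 26 of 27 genes were lower (median -0.116), beside 85.7% of genes with a mean of 10 to 12 (median -0.068). By number, replicates 1 and 2 stood at -0.117 and -0.106. Gene by gene, 10 of 27 (37%) were lower in both subsets of replicates, beside 23.7% of all genes and 352 of 1288 with a mean of 10 to 12, and 17 were lower in replicates 1 and 2. The core subunit gene PSMB3 had 11.09, 11 and 10.97 with miR-99a, against 11.21 and 11.23 in control, and the regulatory subunit gene PSMD12 9.83, 9.7 and 9.75, against 9.96 and 9.89. With quantile normalization 20 of 27 were lower, the median was -0.054, and replicate 3 turned to 0.015. No subunit passed the adjusted test.

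**Figure D5:**
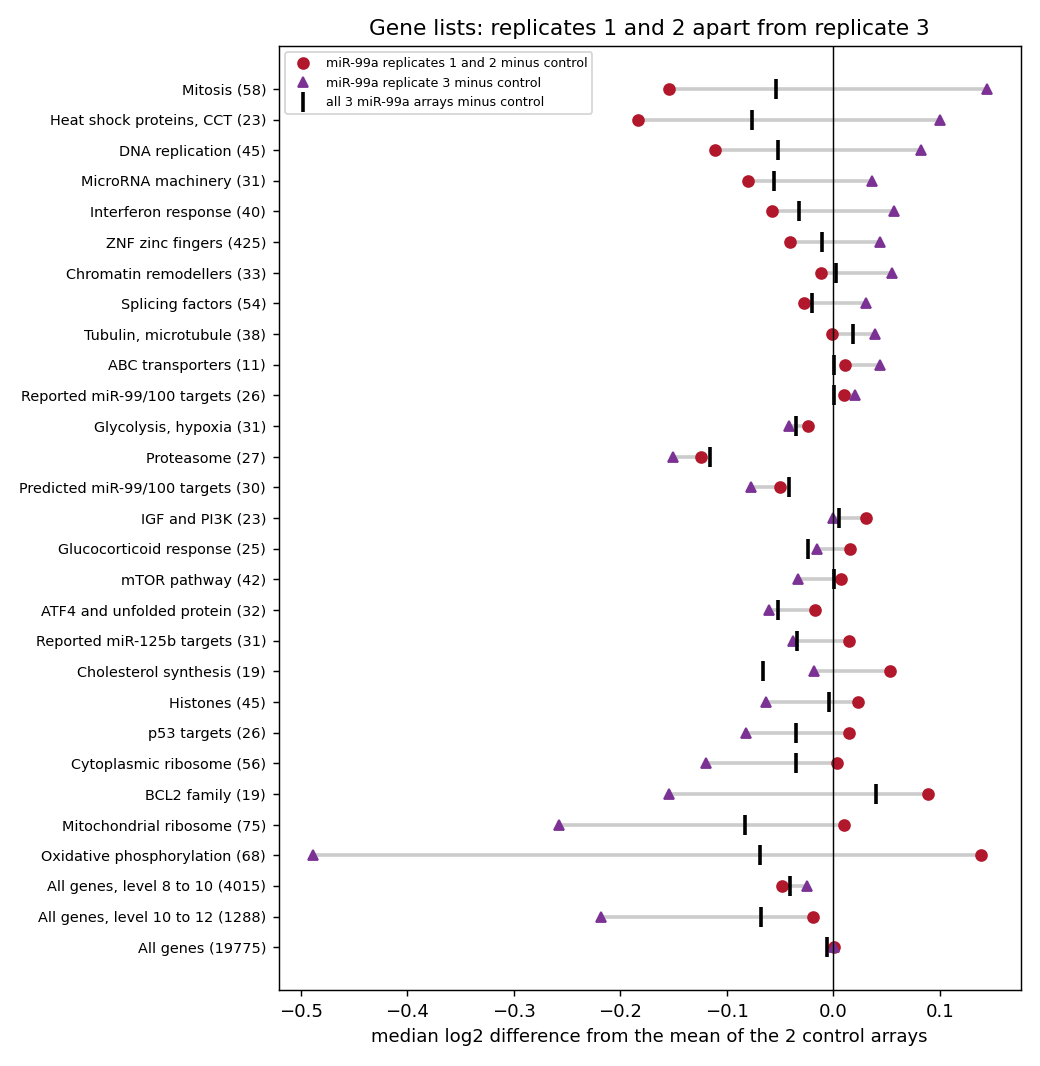
Each row is a gene list (number of measured genes in brackets) and the axis is the median log2 difference from the mean of the 2 control arrays, for miR-99a replicates 1 and 2 (circles), replicate 3 (triangles) and all 3 arrays (ticks). Oxidative phosphorylation runs from 0.139 to -0.489 and mitosis from -0.154 to 0.144, whereas the proteasome has both medians below 0 (quantile normalization turned that of replicate 3 to 0.015).

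Further lists had smaller or uneven differences. Of 26 p53 target genes 17 were lower (median -0.035, with 0.015 in replicates 1 and 2 and -0.082 in replicate 3). The arrays of 6 (23.1%) lay wholly below control, beside 7.88% of all genes and 440 of 4015 genes with a mean of 8 to 10. The median level of this list was 8.18, and the nuclease gene AEN had -0.14 ± 0.08. The 19 genes of the BCL2 family had medians of 0.089 in replicates 1 and 2 and -0.154 in replicate 3, where 78.9% were lower, beside 49.6% of all genes. BCL2 itself, the survival factor, had 10.67, 10.66 and 10.41 with miR-99a, against 10.7 and 10.78 in control. Interferon response genes had 24 of 40 lower (median -0.032, with -0.058 in replicates 1 and 2 and 0.057 in replicate 3), with OAS3 higher and IFIT5 at -0.18 ± 0.1. The ATF4 and unfolded protein response had 21 of 32 lower (-0.052, with -0.017 in replicates 1 and 2 and -0.06 in replicate 3, turned to 0.008 and 0.082 by quantile normalization), with the disulfide isomerase gene PDIA6 at -0.16 ± 0.08. Cholesterol synthesis genes had 11 of 19 lower (0.053 in replicates 1 and 2 and -0.018 in replicate 3, turned to 0.012 by quantile normalization), among them the sterol carrier gene STARD4 (-0.17) and the sterol sensor gene INSIG1 (-0.17). In glycolysis and the hypoxia response 23 of 31 (74.2%) were lower on average (-0.035). The share was 53% among all genes and 69.7% among those with a mean of 8 to 10. After quantile normalization 14 of the 31 were lower and the median turned to 0.001. PKM stood at 0.15 and LDHA at -0.11 in the deposited values. Splicing factors had 33 of 54 lower (-0.02), turned to 0.024 by quantile normalization, and SNRPD2 stood at -0.14. Histone genes were 22 higher and 23 lower, with the linker histone gene H1-4 at 0.27 ± 0.16.

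For genes tied to vincristine, the drug studied in these cells, tubulin and microtubule genes had 22 of 38 higher (median 0.018, with -0.001 in replicates 1 and 2, turned to 0.009 by quantile normalization, and 0.039 in replicate 3), with the microtubule-associated gene MAP1A at 0.15 ± 0.07 and the gamma-tubulin gene TUBG2 at 0.14 ± 0.07. The 11 ABC transporters had 6 higher and 5 lower (median 0.001, turned to -0.008 by quantile normalization). ABCB4 had 5.61, 5.53 and 5.61 with miR-99a, against 5.38 and 5.28 in control, and its second probe set was higher by 0.15, also without overlap. ABCC2 had 0.22 ± 0.1 with overlap. Reported targets of miR-125b, in excess in both groups, had 20 of 31 lower (median -0.034, with 0.015 in replicates 1 and 2 and -0.038 in replicate 3), with the transcription factor gene STAT3 at 0.2 ± 0.12 and LIN28A, an RNA-binding protein gene, at 0.12. Of the 21 genes of the anaphase-promoting complex and its regulators, FBXO5 among them, 12 were lower, and ANAPC2, a core subunit gene, had 0.12 ± 0.08.

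Host transcripts of microRNAs are measured by the array. MIR99AHG, host of miR-99a, had 6.18, 5.91 and 5.95 with miR-99a, against 6.2 and 6.21 in control (-0.2 ± 0.11), and 2 further probe sets had 0.07 and -0.03. MIR100HG was near the floor of the array, at 4.92, 4.95 and 4.91 with miR-99a, against 4.91 and 5.03 in control. MIR17HG, host of the oncogenic miR-17 cluster, had 5.75, 5.71 and 5.7, against 5.42 and 5.49 in control (0.26 ± 0.09), and NFYC had 0.14 ± 0.07. Of 23 listed host genes of small nucleolar RNAs only 8 were measured. All 8 were lower on average, beside 53% of all genes and 69.7% of those with a mean of 8 to 10. Taken apart, 4 were lower in replicates 1 and 2 (median -0.021) and 6 in replicate 3 (-0.161). GAS5 was the farthest, and SNHG10 had -0.11 ± 0.12. After quantile normalization 5 of the 8 were lower.

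B-precursor identity genes showed no common shift. Of 24 markers 15 were lower and 9 higher (median -0.032, and 0.012 after quantile normalization), and none exceeded 0.15 in size. The recombinase gene RAG2 had 8.81, 8.69 and 8.84 with miR-99a, against 8.87 and 8.94 in control, and the kinase gene BLK had 0.07 ± 0.08. The antigen receptor gene CD79A shows the split again, with 9.7, 9.82 and 8.99 with miR-99a, against 9.24 and 9.47 in control, above both controls in replicates 1 and 2 and below both in replicate 3. VPREB3, a surrogate light chain partner gene, had 11.34, 11.49 and 10.59, against 10.99 and 11.43 in control. Of the other lineages, GZMA (-0.15), CD8A (-0.1), S100A9 (-0.11), ITGAM (0.12), PPBP (0.16), ITGA2B (-0.16), DCN (-0.12) and KRT8 (-0.14) had the smallest p in their lists, all at levels below 7.

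Against the other oligos, which use the same seed and share no array with miR-99a, few genes differed. Limma called 0 genes (0%) between miR-99a and miR-100 over all arrays, with 194 at an unadjusted p under 0.05 (0.981%), and 0 genes (0%) between miR-99a and the combination, with 425 (2.15%). Here same-numbered arrays deviated together in every pair (r = 0.297 to 0.694 with miR-100 and 0.587 to 0.816 with the combination), so the replicate number was also fitted as a block. With that block 1 gene passed in each comparison, and with a term for replicate 3 in its place 0 did (lowest adjusted p = 0.197 and 0.307, limma). ND6, a mitochondrially encoded complex I gene, had 9.97, 9.91 and 9.82 with miR-99a, against 9.59, 9.57 and 9.38 with miR-100 (0.39 ± 0.075 with the block, limma, adjusted p = 0.0479). ANPEP, the aminopeptidase gene of CD13, had 11.34, 11.91 and 11.06 with miR-99a, against 12.21, 12.02 and 11.53 with both oligos (-0.49 ± 0.09 with the block, limma, adjusted p = 0.0288). Control had 10.06 and 9.95 for ND6 and 11.25 and 11.87 for ANPEP. Over the 26 reported targets the differences from miR-100 lay between -0.057 and 0.109 and those from the combination between -0.099 and 0.157, and none passed.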

How the data were processed

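The deposited values are log2 expression per probe set of an Affymetrix whole-genome array, a scale read from the values (4.398 to 14.839). Per the labels' protocols, RNA was extracted with Trizol and labelled with Affymetrix one-cycle kits. How probe sets were summarised and normalized is not stated in the labels, and such steps can leave differences that depend on signal level.

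Of 54675 probe sets, 41091 with 1 gene symbol in GEO's platform annotation were kept (41037 matched to RefSeq symbols, GRCh38.p14). The probe set with the highest mean over 11 arrays stood for each of 19775 genes, with no filter on dim genes. Signal and the number of arrays limit precision. Limma 3.58.1 in R 4.3.3 was fitted with a mean per group over all 11 arrays, 2-sided, with Benjamini-Hochberg adjustment over all genes and 95% intervals, and tested on simulated data. The alternatives were quantile normalization, a filter on dim genes, other probe set rules, the 5 arrays alone, the replicate number, and leaving out arrays.

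The gene lists come from general knowledge, and members and lists were chosen with earlier results of these data known. Genes named are the reported targets, the 12 smallest p in each direction without overlap, the 5 largest each way above a mean of 8, the 2 smallest p per other list, genes called in an alternative, and markers. The planned comparison of genes with seed matches in 3′ UTRs was not run, since no UTR sequences were used here. In numbered pairs, deviations of miR-99a and control arrays correlated at -0.146 and 0.438, which does not establish a pairing.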

Additional observations from a re-analysis of the deposited data

How the results depend on the processing

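The count of 0 genes called by limma in miR-99a against control held under quantile normalization, the filter on dim genes, both other probe set rules, the 5 arrays alone, replicate 3 as a term, replicates 1 and 2 alone, and every refit without 1 array (0 to 0). With the replicate block, for which the labels give no pairing here, 5 passed: RBM42 (0.46), S1PR4 (0.44), SAMD1 (0.45), SF3A2 (0.45) and ZNF91 (-0.52). In replicate 3 the 4 higher ones were below the control mean (-0.12, -0.305, -0.125 and -0.231), and ZNF91 was lower there too (-0.358). The cause was not tested. Against miR-100 and against the combination the block called 1 gene each, and replicates 1 and 2 alone called FOLR1 against miR-100 (0.73, limma, adjusted p = 0.0303), which in replicate 3 had 8.765 with miR-99a and 8.942 with miR-100, and over all arrays 0.426 ± 0.289 (limma, adjusted p = 1). With replicate 3 as a term 0 passed in both. Genes with an unadjusted p under 0.05 against control numbered 1981 with the block, 1734 with replicate 3 as a term, 1902 in replicates 1 and 2 alone, 23 with dim genes filtered out at the median level (fewer tested), 550 over all probe sets (more tested), and 168 to 289 without 1 array. Against miR-100 they numbered 363 with the block, 4 with that filter and 160 to 332 without 1 array. Against the combination they numbered 1033, 40 and 299 to 607.

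The reported targets' median was -0.015 with that filter and 0.021 over the mean of probe sets, and that of predicted targets -0.071 with the block or with replicate 3 as a term. Without 1 array the medians ran from -0.022 to 0.013 and from -0.063 to -0.02. With the block the targets' 95% intervals narrowed to -0.4 (0.759 of control) to 0.38 at the outermost, and 22 of 26 included 0, with AKT1, SMARCA5, BAZ2A and RB1CC1 outside (smallest limma, adjusted p = 0.371). The block turned the medians of 14 of 38 lists, and the term for replicate 3 those of 14, among them oxidative phosphorylation (0.105), the cytoplasmic ribosome (0.064), histones (0.047), cholesterol synthesis (0.024), the anaphase-promoting complex (0.023), tubulin (-0.02), chromatin remodellers (-0.019) and the reported targets (-0.003). The filter on dim genes, the test of each probe set and the fit to the compared groups alone left each gene's difference unchanged. Values under those settings could not turn, so the share that kept its direction overstates stability. With them counted, 353 of 379 values over 50 single genes kept their direction and 26, of 12 genes, turned. Over the mean of probe sets these were MTOR (0.057), IGF1R (0.046), INSR (-0.00013), FGFR3 (-0.001), E2F7 (0.032), MTMR3 (0.023), CYP26B1 (0.033) and ICMT (0.00017). Quantile normalization turned IGF1R (0.004), FGFR3 (-2.8e-05), ID1 (-0.002), E2F7 (0.029) and ICMT (0.028). The block and replicate 3 as a term turned RPTOR (-0.00056), AGO2 (-0.007), FGFR3 (-0.005), TNFAIP8 (0.012) and CYP26B1 (0.011), and replicates 1 and 2 alone turned FGFR3 (-0.004), TNFAIP8 (0.046) and ICMT (0.045). Without 1 array, 15 genes turned in at least 1 refit: MTOR ran from -0.154 to 0.044, RPTOR from -0.094 to 0.132, IGF1R from -0.096 to 0.071, INSR from -0.022 to 0.232, RB1CC1 from -0.243 to 0.05, TRIB2 from -0.051 to 0.103, CTDSPL from -0.031 to 0.054, FGFR3 from -0.011 to 0.033, PLK1 from -0.102 to 0.167, ID1 from -0.064 to 0.076, TNFAIP8 from -0.273 to 0.046, E2F7 from -0.083 to 0.047, MTMR3 from -0.12 to 0.062, CYP26B1 from -0.051 to 0.022 and ICMT from -0.039 to 0.045. The cause was not tested. The alternatives for genes with seed matches were not run, as no UTR sequences were used here.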
